A study of Homo sapiens with 18 samples.

Results

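The genes described here are 33 listed genes, the transcription factor ATF4 itself among them. The others are listed ATF4 target and amino acid synthesis genes that take part in the cell's response to amino acid shortage. The list was drawn up by name, with earlier results of these data known. Each gene is represented by the transcript cluster (the unit of signal on this array) whose annotation holds its symbol. Where a gene had more than 1, the cluster of highest mean signal was taken. All 33 were found among the 18417 genes named on the array. Of these genes, 13812 stayed after the 25% of lowest mean signal were left out, and 32 of the 33 members were among them. The remaining member, ALDH1L2, a mitochondrial folate enzyme, had signals between 3.23 and 4.26 on a log2 scale and was not tested.

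ATF4 is translated when the initiation factor eIF2 is phosphorylated, which happens when a kinase senses uncharged tRNA, unfolded protein in the endoplasmic reticulum, double-stranded RNA or heme shortage. It pairs with C/EBP family proteins and switches on genes for making, importing and loading amino acids onto tRNA, along with regulators such as DDIT3 (CHOP), TRIB3 and SESN2 that limit growth signalling or, under lasting stress, favour cell death. In prostate cancer cells androgen controls many genes of metabolism and secretion, so the same program is often studied beside androgen response.

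Gene expression was measured in 2 androgen-responsive human lines established from metastatic prostate cancer: LNCaP, on 12 arrays, and VCaP, which carries a TMPRSS2-ERG fusion, on 6 arrays. The siRNA used was a control (siControl), one against CTBP1-AS, which is a long noncoding RNA read antisense to CTBP1, or one against PSF, the product of SFPQ that binds RNA, and 48 h after transfection the cells received vehicle (ethanol) or the synthetic androgen R1881. All cells had first spent 3 days in medium with hormone-stripped serum, at 2.5% for LNCaP and 5% for VCaP. The question was how each knockdown changes expression and the androgen response.

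The 12 groups fell into 4 sets of arrays, each with its own siControl arrays and with 1 array per siRNA and treatment. In LNCaP the sets were assigned from the array names, R1881 doses and siRNA labels, since no label names them, and every difference within a set rests on that assignment. LNCaP set 1 held siControl and siCTBP1-AS with 10 nM R1881, LNCaP set 2 held siControl#2 and the siRNA labelled siCTBP1-AS#2 with 1 nM, LNCaP set 3 held siControl and siPSF with 10 nM, and all VCaP arrays (siControl, siCTBP1-AS#2, siPSF) formed 1 set with 1 nM. The siControl vehicle and R1881 groups of LNCaP thus have n = 3 arrays, the siCTBP1-AS groups of LNCaP n = 2, and every other group n = 1. No label states whether separate cultures were used, and the p-values therefore cover the spread between arrays, which may be technical, and in LNCaP dose, siRNA label and array set cannot be told apart. Whether siCTBP1-AS#2 has another sequence than siCTBP1-AS is not stated either. Within a set, every knockdown difference and the siControl hormone difference use the same siControl arrays.

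The knockdown labels were checked first where a cluster allowed it. In LNCaP set 3 the SFPQ signal was 11.15 (vehicle) and 10.79 (R1881) under siControl and 10.47 and 9.89 under siPSF, and in VCaP it was 11.02 and 11.16 against 9.70 and 9.61. It fell by 1.18 over both lines (SE 0.14, limma adjusted p = 0.000748). No cluster was matched to CTBP1-AS itself, so its knockdown was not checked here, and the signal of CTBP1 on the other strand checks nothing. The luminal prostate markers measured (5 of 8 listed) were above the median gene in all 4 sets, ERG was 10.56 in VCaP and 3.93 to 4.95 in the LNCaP sets, none of the measured leukocyte, endothelial or basal markers was above the median gene, and 1 of 5 fibroblast markers was in each set. Median signals of the sets differed (7.39 to 7.46 in set 2 and 8.27 to 8.34 in set 3 over the genes tested), so levels are compared within sets only.

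ATF4 and its C/EBP partners bind a composite DNA element, TGATGNAA (TTNCATCA on the other strand), and promoters of members that carry these letters are shown. They are matches of letters, binding was not measured, and the members had been listed as ATF4 target or amino acid synthesis genes beforehand. RefSeq promoters (GRCh38.p14, from 250 bases before to 50 after a start) matched 28 of the 33 members. The element was found on either strand in promoters of 11 of these 28 genes (39.3%), against 4.46% of all 27305 genes with a promoter entry and 3.62% of all 35116 promoters of this length. The genes were ASNS, CHAC1, SLC1A5, SLC1A4, CARS1, ATF3, AARS1, GARS1, CEBPG, JDP2 and SLC3A2, and the first 6 are shown on the strand of the gene with the element in capitals. Counted from the start site, the element begins at -68 in ASNS, which makes asparagine, and at -209 in CHAC1, which degrades glutathione. It begins at -97 and -7 in the amino acid carriers SLC1A5 and SLC1A4, at -2 in CARS1, which charges the cysteine tRNA, and at -191 in ATF3, a further transcription factor of the response. The last sequence shows a different element in capitals, the core of an interferon-stimulated response element (both strands searched), which begins at -55 in WARS1, the tryptophan tRNA synthetase. That core was found in 2 of the 28 members (WARS1 and ATF5), against 4.38% of all genes and 3.57% of all promoters, and the cyclic AMP response element TGACGTCA in 1 member (PPP1R15A), against 2.25% of all genes and 1.85% of all promoters.
ASNS (chr7:97872458-97872487, minus strand): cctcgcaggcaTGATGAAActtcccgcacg
CHAC1 (chr15:40953251-40953280, plus strand): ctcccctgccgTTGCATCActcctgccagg
SLC1A5 (chr19:46784893-46784922, minus strand): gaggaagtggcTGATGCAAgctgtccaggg
SLC1A4 (chr2:64989381-64989410, plus strand): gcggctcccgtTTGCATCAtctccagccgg
CARS1 (chr11:3057407-3057436, minus strand): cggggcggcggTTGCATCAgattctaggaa
ATF3 (chr1:212565205-212565234, plus strand): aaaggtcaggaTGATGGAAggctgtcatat
WARS1 (chr14:100375383-100375412, minus strand): tttcagaaggGAAACTGAAAgaaagagggg

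In LNCaP with siCTBP1-AS most members lay below siControl, and 4 passed the test. Of 32 members tested, 30 had a fitted change below 0, with a median of -0.48 on the log2 scale against -0.01 over all genes, and those that passed, all lower, were PSAT1, SHMT2, PYCR1 and STC2. The first 3 are among 8 synthesis genes tested. Over all genes 0.311% were called lower and 0.615% higher in this comparison (limma, Benjamini-Hochberg adjusted p under 0.05). At an unadjusted p under 0.05 there were 18 members, all lower, against 18.1% of all genes in either direction.

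PSAT1, the aminotransferase of serine synthesis, had set 1 signals of 11.28 (vehicle) and 10.12 (R1881) under siControl and of 9.62 and 9.13 under siCTBP1-AS. In set 2 the same order of arrays gave 10.59 and 9.42, then 9.66 and 9.12. The siCTBP1-AS array was the lower in all 4 matched pairs, and PSAT1 fell by 0.97 (SE 0.15, 95% confidence interval -1.32 to -0.61, adjusted p = 0.0374). In set 2, however, its vehicle array with siCTBP1-AS (9.66) was above the siControl array with R1881 (9.42). SHMT2, which moves a carbon from serine to folate in mitochondria, read 12.19 and 11.78 against 11.45 and 11.18 in set 1 and 11.13 and 11.03 against 10.24 and 10.33 in set 2. For SHMT2 every knockdown array lay below both siControl arrays of its set, with a fall of 0.73 (SE 0.11, adjusted p = 0.0295). PYCR1, the last enzyme of proline synthesis, read 11.00 and 10.61 against 10.05 and 10.23 in set 1, and 9.58 and 9.99 against 8.67 and 8.99 in set 2. The groups did not overlap within either set and PYCR1 fell by 0.81, at the edge of the threshold (SE 0.14, adjusted p = 0.0499). The other synthesis genes measured were below siControl in the fit but did not pass the test, with ASNS at -0.71 (adjusted p = 0.254), the cystathionine lyase CTH at -0.87 (0.229), MTHFD2 at -0.52 (0.261), PSPH at -0.25 (0.597) and PHGDH at -0.17 (0.717).

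STC2, a secreted glycoprotein induced by endoplasmic reticulum stress, had set 1 signals of 9.31 and 8.67 under siControl and of 8.42 and 7.51 under siCTBP1-AS, and set 2 signals of 7.92 and 6.43 against 6.54 and 6.05. Its knockdown arrays were lower at matched treatment in each set, although the set 2 vehicle array with siCTBP1-AS (6.54) was above the siControl array with R1881 (6.43). The fitted fall was 0.95 (SE 0.16, adjusted p = 0.0429). VLDLR, a lipoprotein receptor, stood apart from STC2 in this group: it was within 0.06 and 0.34 of siControl with vehicle in sets 1 and 2, and differed by -0.29 and -1.62 with R1881.

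**Figure D1:**
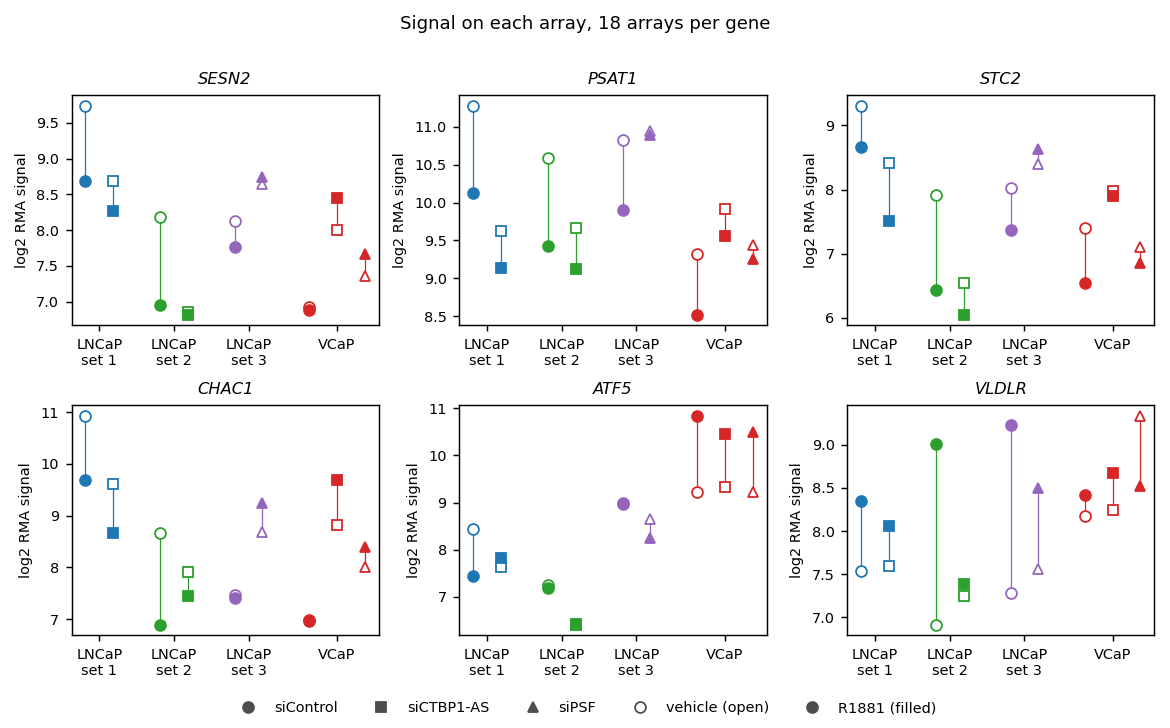
Log2 RMA signal of 6 members on each of the 18 arrays, in panels by gene, with the array sets along the horizontal axis (open symbols vehicle, filled symbols R1881, circles siControl, squares siCTBP1-AS, triangles siPSF; a line joins the arrays of 1 siRNA in 1 set). With siCTBP1-AS, SESN2, PSAT1 and STC2 lie below siControl at matched treatment in both LNCaP sets and above it in VCaP, and the siControl vehicle array of set 1 is the highest of its set for all panels but VLDLR.

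Amino acid carriers and regulators were mostly lower in these LNCaP arrays without passing the test. SLC1A4, which carries alanine, serine and cysteine, read 8.40 and 7.50 under siControl against 6.66 and 6.77 under knockdown in set 1, and 7.30 and 7.16 against 6.15 and 5.53 in set 2. Its groups did not overlap within a set, and the fitted difference was -1.31 (SE 0.25, adjusted p = 0.0586). The glutamine carrier SLC1A5 was at -0.83 (adjusted p = 0.162), the leucine carrier SLC7A5 at -0.48 (0.241) and its partner chain SLC3A2 at -0.01 (0.994). Among 13 transcription factors and stress regulators 11 were below 0 and none was called, with SESN2, which restrains mTORC1 when leucine is short, at -0.73 (0.0736), TRIB3, a pseudokinase that dampens ATF4 activity, at -0.81 (0.152), DDIT4, an mTORC1 inhibitor, at -0.55 (0.162) and DDIT3 at -0.52 (0.284). ATF4 itself was at -0.44 (0.209) on the cluster used, and its other cluster, of lower mean signal, differed by -0.03. ATF3 (0.20) and PPP1R15A (0.17), the regulatory subunit that restores eIF2, were the 2 members above 0. The 5 tRNA genes were all below 0, between -0.36 (CARS1) and -0.47 (GARS1), with none called.

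The size of the LNCaP difference depended on set and treatment. The members' median difference from siControl was -0.88 with vehicle and -0.44 with R1881 in set 1, and -0.37 and 0.02 in set 2, where 17 of 32 members were above siControl with R1881. In 13 of 32 members the knockdown array was the lower in all 4 pairs, against 14.3% of all genes, and in 1 (ATF3) it was the higher in all, against 11.4%. The siControl vehicle array of set 1 enters these values. It held the highest signal of its set for 30 of 32 members, against 32.4% of all genes. On the siCTBP1-AS vehicle array 12 of 12 endoplasmic reticulum stress genes (chaperones, degradation factors and XBP1) were below that siControl array (median -1.36). The siControl vehicle array of set 2 likewise held the highest signal of its set for 24 of 32 members, against 26% of all genes. The part of these arrays' high signals in the members' values was not tested beyond leaving out the set 1 array or a set. Without the set 1 array no member was called (median -0.32, limma adjusted p of the 4 between 0.0814 and 0.107), and 74 of all genes were, against 128 with it. With set 1 left out altogether 7 members were called, all lower: PSAT1, SHMT2, PYCR1, STC2, SLC1A4, ATF5 and VLDLR. The calls over all genes then numbered 1684, with 7.25% called lower, and the median over the members was -0.14. With set 2 left out, PSAT1 and STC2 were called beside 145 of all genes, and the median was -0.72.

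Of other pathway genes listed with the members, 2 passed the test in LNCaP with siCTBP1-AS. SLC7A1, the arginine and lysine carrier, fell from 11.06 and 10.39 to 9.94 and 9.84 in set 1 and from 9.36 and 9.07 to 8.34 and 8.35 in set 2 (log2 change -0.85, SE 0.11, adjusted p = 0.0164). EIF2AK2, the double-stranded RNA sensor PKR that phosphorylates eIF2 and is itself induced by interferon, rose from 10.20 and 9.20 to 11.14 and 11.22 in set 1 and from 9.24 and 9.02 to 10.30 and 9.95 in set 2 (1.23, SE 0.19, adjusted p = 0.037). It was 1 of 12 eIF2 kinases and regulators called, and SLC7A1 was 1 of 5 other amino acid transporters. Of 15 other cytoplasmic tRNA synthetases, 11 other ATF4-linked genes and 12 endoplasmic reticulum stress genes tested, none was called by limma. At an unadjusted p under 0.05 there were 4, 4 and 3.

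Interferon-stimulated genes moved in the same arrays. Of 10 measured, 6 rose with siCTBP1-AS in LNCaP and none fell, with a median of 3.64 over the list, and the median difference from siControl lay between 2.28 and 5.37 in the 4 pairs. WARS1, which carries the interferon element shown above and is known to respond to interferon, did not follow them: it differed from siControl by -1.67 and -0.20 in set 1 and by 0.06 and 0.02 in set 2. The part of this list in the members' values was not tested.

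**Figure D2:**
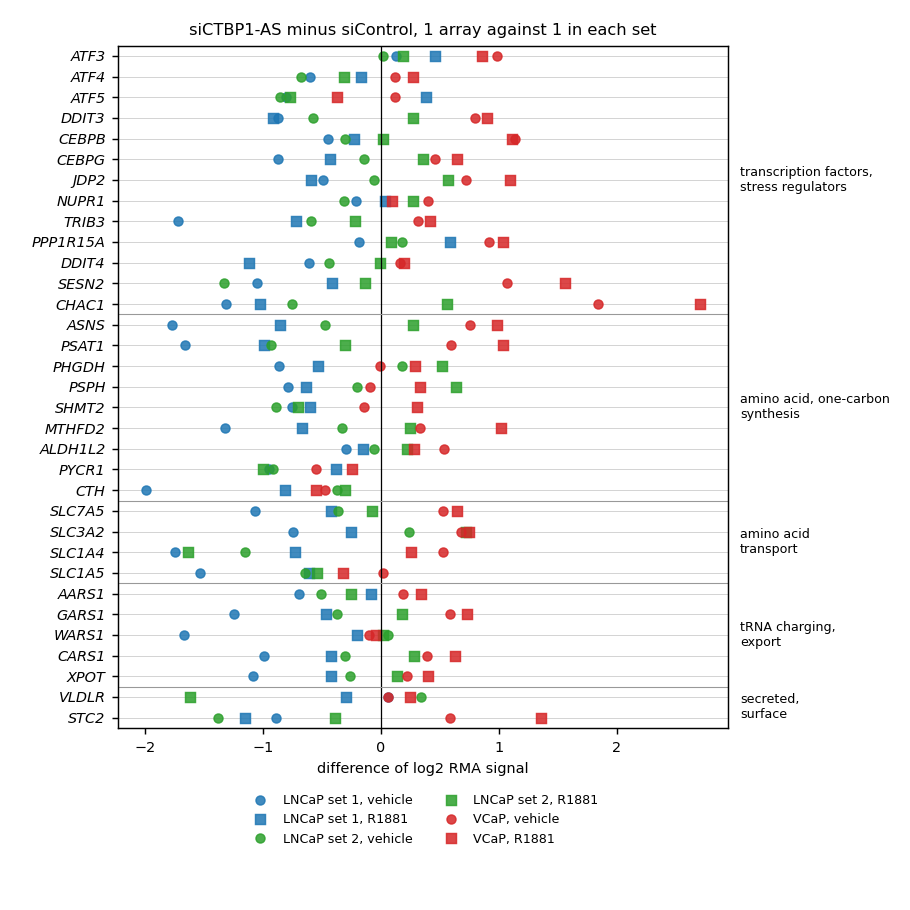
Difference of log2 RMA signal between the siCTBP1-AS and the siControl array of the same set and treatment, for all 33 members grouped by role (circles vehicle, squares R1881, blue LNCaP set 1, green LNCaP set 2, red VCaP). Most blue and green circles lie left of 0 and most red symbols right of it; CHAC1 in VCaP with R1881 is the largest, at 2.71.

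In VCaP the same knockdown went with higher signals of most members, and the difference between the lines passed the test for SESN2, PSAT1 and STC2. In VCaP 27 of 32 members had a fitted change above 0, with a median of 0.46 against -0.03 over all genes, and 24 were above siControl in both treatments, against 24.7% of all genes. SESN2 was the single member called in VCaP, where 0.0869% of all genes were called higher (limma, from the fit with a term for each line). At an unadjusted p under 0.05 there were 14 members higher and 1 lower (PYCR1), against 10.5% of all genes in either direction.

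SESN2 in VCaP read 6.93 (vehicle) and 6.88 (R1881) under siControl and 8.00 and 8.45 under siCTBP1-AS, a rise of 1.32 (SE 0.20, adjusted p = 0.0462). Both knockdown arrays were above both siControl arrays. In LNCaP the order was the opposite at each treatment, with 9.74 and 8.69 against 8.69 and 8.27 in set 1 and 8.18 and 6.95 against 6.85 and 6.82 in set 2. PSAT1 read 9.32 and 8.52 with siControl against 9.92 and 9.56 with siCTBP1-AS in VCaP, and STC2 7.40 and 6.54 against 7.98 and 7.90. For both genes the knockdown arrays lay above the siControl arrays, with fitted changes in VCaP alone of 0.82 (adjusted p = 0.148) and 0.98 (0.152) that did not pass the test.

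The test of the difference between the lines, VCaP minus LNCaP, gave 2.05 for SESN2 (SE 0.24, adjusted p = 0.0217), 1.79 for PSAT1 (SE 0.24, 0.0267) and 1.93 for STC2 (SE 0.28, 0.0426). Over all genes 0.0724% were called in this direction. All 32 members had a difference above 0, with a median of 0.82 against -0.01 over all genes, and 9 members were below siControl in all 4 LNCaP pairs and above it in both VCaP pairs, against 2.80% of all genes. Both lines are compared to their own siControl arrays. The lines also differ in array set and serum, for sets 1 and 3 in dose, and for set 1 in siRNA label. With set 1 left out, the siCTBP1-AS arrays of both lines had the same siRNA label and 1 nM R1881. Set 3, which had another R1881 dose, stayed in that fit, so the lines were not matched for dose. The number called was 8: SESN2, PSAT1, STC2, CHAC1, CEBPB, PPP1R15A, SHMT2 and SLC1A4. Over all genes 1335 were then called, against 19 with every set. With set 3 left out it was 1 member (SESN2) beside 3 of all genes.

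**Figure D3:**
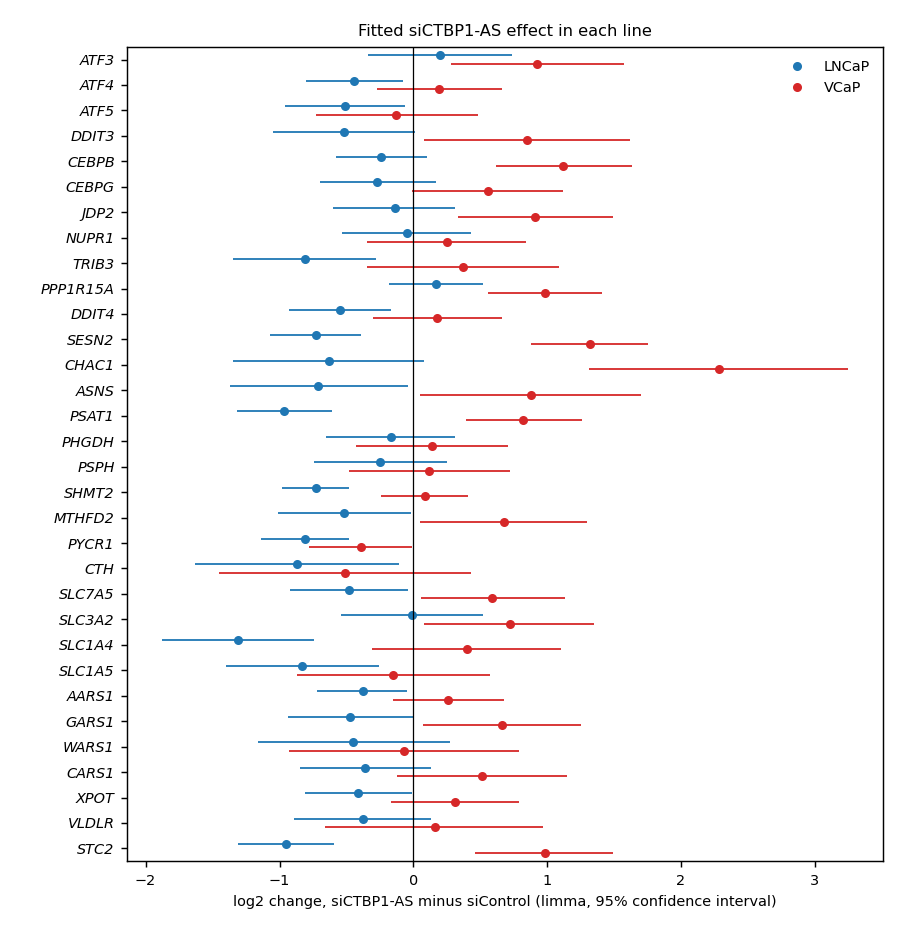
Fitted log2 change with siCTBP1-AS for the 32 members tested, in LNCaP (blue) and VCaP (red), with 95% confidence intervals from limma (horizontal axis, log2 scale; members grouped by role from top to bottom). Every VCaP estimate lies to the right of its LNCaP estimate, with the intervals of SESN2, PSAT1, STC2 and CHAC1 among those that do not overlap.

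Role groups had different medians with siCTBP1-AS in VCaP, and their differences were not tested. The median was highest of the 5 role groups in the transcription factors and stress regulators (0.85, 12 of 13 above 0). CHAC1 read 6.96 and 6.98 under siControl against 8.81 and 9.69 under siCTBP1-AS, the largest fitted change of any member there (2.28, SE 0.44), with an adjusted p of 0.0737. PPP1R15A read 8.36 and 8.46 against 9.28 and 9.50 (0.98, adjusted p = 0.0768) and CEBPB, a partner of ATF4, 8.10 and 8.32 against 9.24 and 9.43 (1.12, 0.0992). For these 3 genes both knockdown arrays were above both siControl arrays, and none passed the test. ATF4 transcript was at 0.19 (0.823). The synthesis genes had a median of 0.13: ASNS (0.88), PSAT1 and MTHFD2 (0.68) were above 0, and PYCR1 (-0.39) and CTH (-0.51) below.

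PYCR1 was the one member called when both lines were fitted with a common siCTBP1-AS term, with a fall of 0.68 (SE 0.11, adjusted p = 0.0288), where 0.340% of all genes were called lower. In VCaP it read 10.52 and 10.73 under siControl against 9.97 and 10.49 under siCTBP1-AS. The knockdown array was the lower in all 6 pairs of the 3 sets, by 0.24 to 1.00. Without the siControl vehicle array of set 1 its adjusted p was 0.0514, and with set 1 or set 2 left out no member was called.

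The members with and without the C/EBP-ATF element in their promoter are set side by side as a description. In VCaP the 11 genes with it had a median change of 0.66 (10 above 0) and the 17 genes without it 0.37 (14 above 0). In LNCaP the medians were -0.38 and -0.51.

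One gene of the eIF2 machinery stood out in VCaP. EIF2B1, a subunit of the exchange factor that recharges eIF2, read 10.85 and 10.71 under siControl against 9.25 and 9.37 under siCTBP1-AS, a fall of 1.47 (SE 0.18, adjusted p = 0.0228), and 10.66 and 10.61 with siPSF. In LNCaP set 2, with the same siRNA label, it read 10.25 and 10.42 against 9.86 and 9.99, and in set 1, 9.76 and 10.06 against 10.01 and 10.24. It was lower with siCTBP1-AS in VCaP and in set 2 and higher in set 1. Of the 12 eIF2 kinases and regulators it was the only one called in VCaP, and its part in the members' values was not tested. Of the endoplasmic reticulum stress genes 10 of 12 were below 0 there (median -0.17) and none was called by limma or reached an unadjusted p under 0.05. The cystine carrier SLC7A11, among the other transporters, was at 1.44 (adjusted p = 0.238). Interferon-stimulated genes were above siControl in 10 of 10 cases (median 1.21, 1 called).

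With R1881 a small group of members fell in LNCaP, PHGDH and PSAT1 of serine synthesis among them. Across the 6 pairs of arrays (3 with siControl, 2 with siCTBP1-AS, 1 with siPSF) and with each pair as a block, 6 of 32 members fell and 1 rose, where 7.46% of all genes were called lower and 8.06% higher. The median over the members was -0.17 against -0.01 over all genes. With the siControl arrays alone, no member was called by limma without a block, where 0.253% of all genes were, and 2 (VLDLR and PSAT1) had an unadjusted p under 0.05, as did 2.33% of all genes. Same-numbered arrays deviate together, and with the replicate block 6 members fell and 1 rose, where 2.41% of all genes were called lower and 2.90% higher.

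PHGDH, the first enzyme of serine synthesis, read 11.96, 11.77 and 12.07 with vehicle and 11.10, 11.14 and 11.39 with R1881 in the siControl arrays of sets 1, 2 and 3. Every R1881 array lay below every vehicle array. Over the 6 pairs it fell by 0.54 (SE 0.08, adjusted p = 0.00353), and by 0.72 in the siControl arrays with the block (adjusted p = 0.0164). These values are from the cluster used, of mean signal 11.41. Another cluster, annotated to both MZT2B and PHGDH (mean 11.13), differed by 0.16 with R1881 in LNCaP. PSAT1 read 11.28, 10.59 and 10.83 with vehicle against 10.12, 9.42 and 9.90, again without overlap, and fell by 0.72 over the 6 pairs (SE 0.14, adjusted p = 0.0109) and by 1.09 in the siControl arrays with the block (0.00375). The R1881 array was the lower in all 6 LNCaP pairs for both genes. SLC7A5 (-0.67, adjusted p = 0.00971), DDIT4 (-0.56, 0.0144), JDP2, a repressor of the AP-1 family (-0.57, 0.0258), and STC2 (-0.66, 0.0376) also fell over the 6 pairs, and the block in the siControl arrays called DDIT4, JDP2, STC2 and SESN2 (-0.89, 0.0392) in addition to PHGDH and PSAT1.

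VLDLR was the member that rose. Its siControl signals were 7.53, 6.91 and 7.28 with vehicle and 8.35, 9.01 and 9.23 with R1881 in sets 1, 2 and 3, and the groups did not overlap. It rose by 1.07 over the 6 pairs (SE 0.25, adjusted p = 0.0201), a fold of 2.10. In the LNCaP sets the rise was smaller under each knockdown than under the siControl of the same set, at 0.48 against 0.82 in set 1, 0.14 against 2.10 in set 2 and 0.94 against 1.96 in set 3, and the terms for a change of the response under siCTBP1-AS or siPSF did not pass the test. In VCaP VLDLR read 8.18 with vehicle and 8.42 with R1881 under siControl. Its R1881 difference there was 0.24 with siControl, 0.42 with siCTBP1-AS and -0.83 with siPSF.

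Set 3 differed from sets 1 and 2 in its R1881 response. The members' median response with siControl was -0.82 in set 1, -0.51 in set 2 and 0.03 in set 3, and 20 of 32 members were lower with R1881 in all 4 pairs of sets 1 and 2, against 14.7% of all genes, whereas 18 were higher in both pairs of set 3, against 30.3%. The siControl responses of sets 1 and 2 start from vehicle arrays that were the highest of their set for 30 and 24 members. Over all genes these shares were 32.4% and 26%. Sets 1 and 3 both used 10 nM. The endoplasmic reticulum stress genes had medians of -0.66 in set 1, 0.60 in set 2 and 0.66 in set 3 in the same siControl pairs. Their part in the members' values was not tested. Over the LNCaP pairs the members' median of -0.17 became -0.04 without set 1 and -0.40 without set 3. The number of members called over the LNCaP pairs was 4 without set 1, where 12.7% of all genes were called, and 2 without set 2 (VLDLR rose and PHGDH fell), where 8.70% were. Without set 3 it was 8, all lower, where 1.39% of all genes were called lower, and VLDLR did not pass the test.

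**Figure D4:**
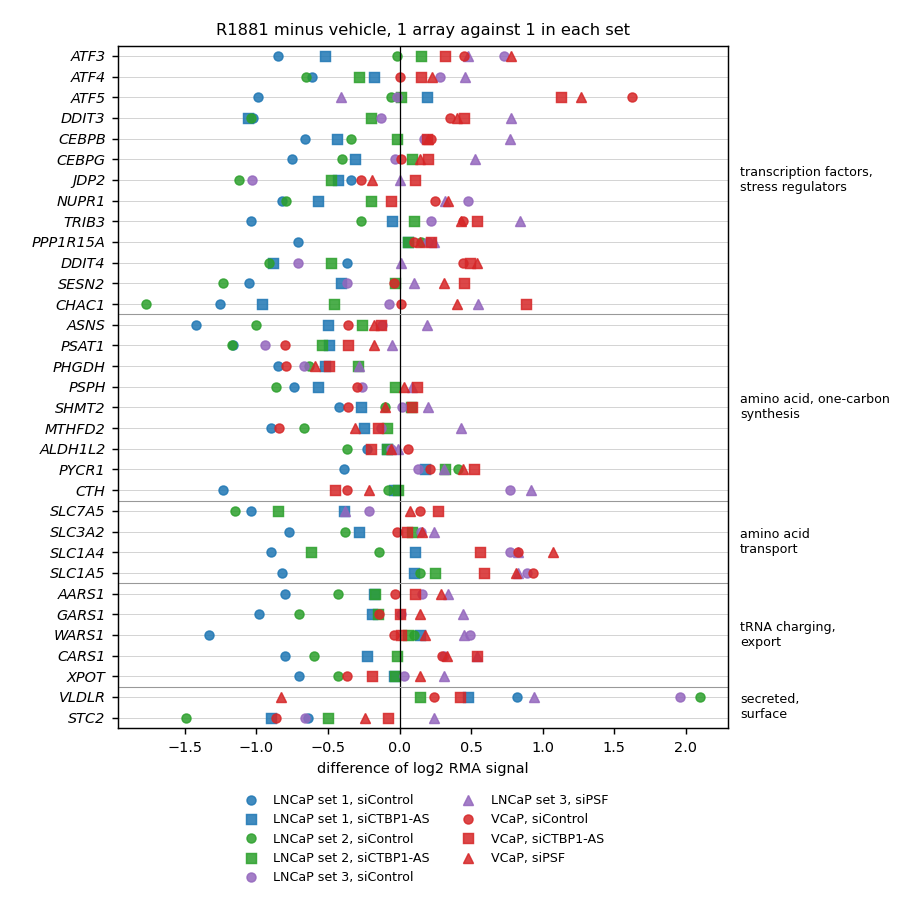
Difference of log2 RMA signal between the R1881 and the vehicle array of the same set and siRNA for the 33 members grouped by role (blue, green and purple LNCaP sets 1, 2 and 3, red VCaP; circles siControl, squares siCTBP1-AS, triangles siPSF). PHGDH and PSAT1 lie left of 0 in all 9 pairs, while ATF5, SLC1A5 and SLC1A4 lie right of 0 in all 3 VCaP pairs, ATF5 at 1.13 to 1.62.

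In VCaP more members rose than fell with R1881. Across the 3 pairs of arrays 9 members rose and 3 fell, where 13.7% of all genes were called higher and 15.8% lower. In the siControl pair alone 16 members were above 0 and 16 below (median 0), where 49.5% of all genes were above. The siCTBP1-AS and siPSF pairs had 24 and 23 members above 0 (median 0.17 in each), against 52% and 49.5% of all genes. The 2 small neutral amino acid carriers rose: SLC1A5 read 10.02, 10.04 and 10.09 with vehicle and 10.95, 10.63 and 10.91 with R1881 (siControl, siCTBP1-AS and siPSF), a rise of 0.78 (SE 0.10, adjusted p = 0.00134), and SLC1A4 read 7.52, 8.05 and 7.64 against 8.35, 8.61 and 8.71 (0.82, SE 0.12, 0.00191). The R1881 arrays of both genes were all above the vehicle arrays. ATF5, a transcription factor related to ATF4 and linked to mitochondrial stress, read 9.22, 9.34 and 9.23 with vehicle and 10.84, 10.46 and 10.50 with R1881, a fold of 2.53 (log2 change 1.34, SE 0.12, adjusted p = 0.00025), with a wide gap between the groups.

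Smaller rises in VCaP were called for the regulators ATF3 (0.51, adjusted p = 0.0127), DDIT4 (0.49, 0.00599), TRIB3 (0.47, 0.00752) and DDIT3 (0.40, 0.0145), so that 5 of 13 transcription factors and stress regulators rose and none fell. CARS1 (0.39, 0.0207) was 1 of 5 tRNA genes to rise, and PYCR1 (0.39, 0.0241) the one synthesis gene. The other called synthesis genes fell: PHGDH by 0.63 (SE 0.10, 0.00316), PSAT1 by 0.44 (0.0366) and CTH by 0.35 (0.0307). On the clusters used, PHGDH and PSAT1 fell with R1881 in both lines. The cluster annotated to both MZT2B and PHGDH differed by 0.16 in LNCaP and by -0.12 in VCaP. The number of members called in VCaP was 7 without the siCTBP1-AS pair and 7 without the siPSF pair, where 20.0% and 18.8% of all genes were called. In VCaP 9 of 12 endoplasmic reticulum stress genes rose with R1881 (median 0.74), among them DNAJB9 by 1.52 and HYOU1 by 0.94. Of 12 other ATF4-linked genes 5 rose and 3 fell. Of 12 eIF2 kinases and regulators 4 rose and 0 fell. The kinase EIF2AK3 (PERK), which senses unfolded protein, rose by 0.56 (adjusted p = 0.00482). The others were EIF2B4 (0.55, 0.00376), PPP1R15B (0.52, 0.00464) and the kinase EIF2AK4 (0.32, 0.0363).

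The R1881 response differed between the lines for 3 members, all higher in VCaP, where 5.25% of all genes were called in this direction and 6.33% in the other. The difference, VCaP minus LNCaP, was 1.55 for ATF5 (SE 0.23, adjusted p = 0.00181), 1.05 for DDIT4 (SE 0.18, 0.00468) and 0.83 for SLC7A5 (SE 0.20, 0.0238). The DDIT4 signal with siControl went from 10.79, 9.54 and 9.31 with vehicle to 10.42, 8.62 and 8.60 with R1881 in the LNCaP sets, and from 7.77 to 8.21 in VCaP. It was lower with R1881 in each LNCaP siControl pair and higher in each of the 3 VCaP pairs. In the LNCaP knockdown pairs DDIT4 differed by -0.88 (set 1) and -0.48 (set 2) with siCTBP1-AS, and by 0.01 with siPSF in set 3. All 13 transcription factors and stress regulators had a difference above 0, with a median of 0.50 against 0.01 over all genes. The members called numbered 11 with set 3 left out, where 10.7% of all genes were called, and the doses and serum also differ between the lines.

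Knockdown of PSF went with higher signals of most members in both lines, and none passed the test. With a common siPSF term for both lines, 26 of 32 members were above 0 with a median of 0.17, and limma called none, where 1.45% of all genes were called in either direction; 2 members (PYCR1 and ATF5, both lower) had an unadjusted p under 0.05, against 13.4% of all genes. That fit has a single siCTBP1-AS term for both lines. With terms for each line, no member was called in LNCaP, where 0.702% of all genes were, nor in VCaP, where 1.90% were, with 13 and 3 members at an unadjusted p under 0.05, against 13.4% and 14% of all genes. The medians were 0.43 (28 of 32 above 0) in LNCaP and 0.21 (26 of 32) in VCaP. With only set 3 and VCaP in the fit, CHAC1 was called, at 1.38 (adjusted p = 0.035), beside 54 of all genes against 200 in the fit of all arrays.

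In LNCaP set 3, SLC7A5 read 6.86 (vehicle) and 6.65 (R1881) with siControl and 8.15 and 7.76 with siPSF, a difference of 1.20 (SE 0.24, adjusted p = 0.0632). CHAC1 read 7.47 and 7.40 against 8.69 and 9.24 (1.53, 0.162) and DDIT3 8.76 and 8.63 against 9.47 and 10.25 (1.17, 0.179). The siPSF arrays of these 3 genes were above both siControl arrays. In VCaP SLC7A5 read 6.27 and 6.42 against 6.18 and 6.25, DDIT3 9.14 and 9.48 against 9.47 and 9.86, and CHAC1 6.96 and 6.98 against 8.00 and 8.39. CHAC1 and SESN2 (6.93 and 6.88 against 7.36 and 7.67) were above siControl on both siPSF arrays of VCaP as well. PYCR1 and ATF5 lay below siControl with siPSF in LNCaP, by 0.43 and 0.54, and did not pass the test.

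No member's siPSF effect differed between the lines by limma, where 0.159% of all genes were called in either direction, with 3 members at an unadjusted p under 0.05, against 11.4% of all genes: SLC7A5 (-1.33, adjusted p = 0.165), DDIT4 (-1.14, 0.178) and STC2 (-0.81, 0.393), each lower in VCaP. For SLC7A5 the 95% confidence interval of the difference was -2.09 to -0.57. In VCaP siPSF went with higher interferon-stimulated genes (median 2.79, 5 of 10 called), whereas in set 3 their median differences were -0.06 and 0.17.

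**Figure D5:**
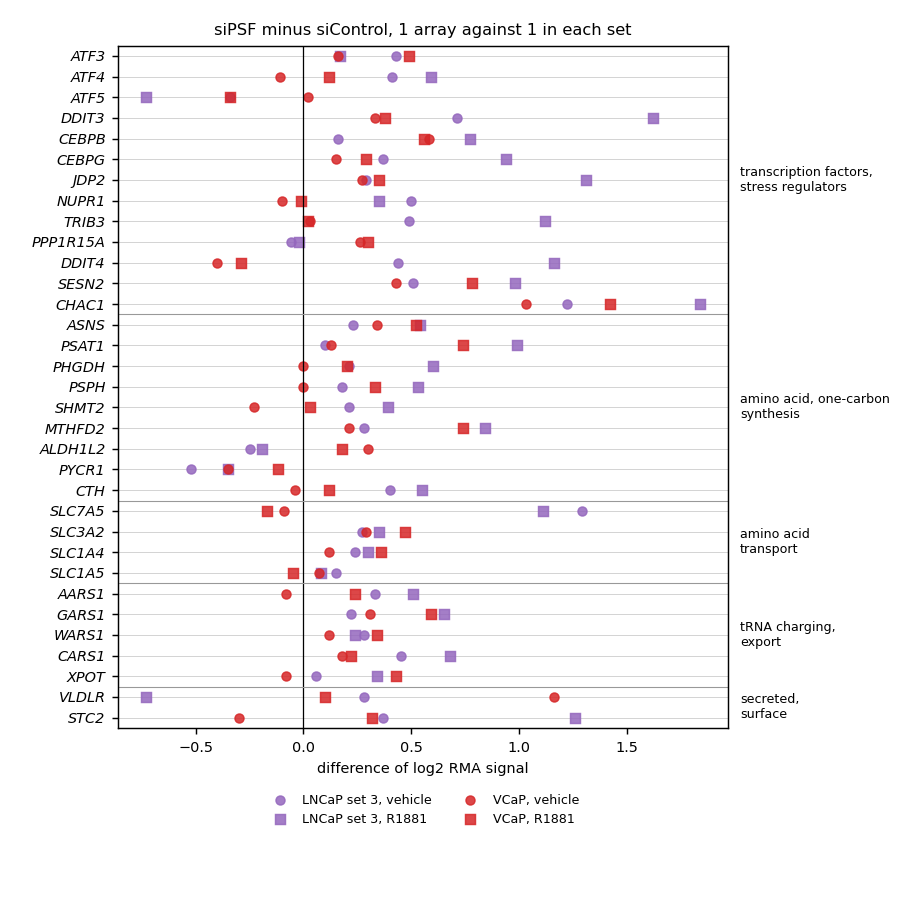
Difference of log2 RMA signal between the siPSF and the siControl array of the same set and treatment for the 33 members grouped by role (purple LNCaP set 3, red VCaP; circles vehicle, squares R1881). In set 3 28 of the 32 members tested lie right of 0 in both treatments, and CHAC1 reaches 1.84 there with R1881.

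Whether a knockdown changed the androgen response was tested by a product term. For siCTBP1-AS in LNCaP no member was called, and 0% of all genes were. The median of the term was 0.23 with 27 of 32 members above 0, and 2 had an unadjusted p under 0.05, against 2.01% of all genes. With only sets 1 and 2 in the fit the median was 0.47. For siPSF over both lines no member and 0% of all genes were called, with a median of 0.53 against 0.02 over all genes, 30 of 32 members above 0 and none at an unadjusted p under 0.05, against 1.94% of all genes. That fit holds a common R1881 term for the LNCaP sets, whose siControl responses differed. With only set 3 and VCaP in the fit the median was 0.24. In set 3 24 of 32 members had their highest signal of the set on the siPSF array with R1881, against 20.9% of all genes. The intervals were wide in the fit of all arrays: the term was 0.86 for PSAT1 (-0.45 to 2.18), 0.88 for DDIT3 (-0.56 to 2.32) and 1.01 for CHAC1 (-1.27 to 3.29). Within set 3 the R1881 difference of CHAC1 was -0.07 with siControl and 0.55 with siPSF, and that of DDIT3 -0.13 and 0.78. In VCaP the same order gave 0.01 and 0.40 for CHAC1 and 0.35 and 0.40 for DDIT3.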

How the data were processed

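Human Gene 1.0 ST arrays (18 arrays) were analysed. The authors deposited log2 signals for each transcript cluster, and the submitters' processing notes name RMA and Affymetrix Expression Console 1.1.1. No genome build was needed. Array quantiles lay within 0.16 of each other in a set, while set medians over all clusters ran from 5.74 to 6.80, and sets were treated as normalized separately. GEO's platform annotation gave 1 symbol to 19460 of 33297 clusters, several to 1754 and none to 12083. A gene took its cluster of highest mean signal (5 members had more than 1), and the 25% of genes with the lowest mean in a comparison's arrays were left out. Tests were made with limma 3.58.1 (R 4.3.3; lmFit and eBayes) over all genes at a Benjamini-Hochberg adjusted p under 0.05. The knockdown fits (12 LNCaP or all 18 arrays) held terms for array set, R1881 in each line, each knockdown and its product with R1881, and each knockdown in VCaP where lines were compared, with effects averaged over both treatments; the R1881 fits held each pair of arrays as a block, and the siControl fit did not. Same-numbered LNCaP siControl arrays, which share an array set, deviated together (r = 0.79, 0.84 and 0.71; different numbers -0.63 to -0.13), so the blocked value is given beside that fit. Fits of the effect in VCaP or of siPSF in LNCaP alone were added after seeing the data. The number of arrays limits the precision. The fits were tested on simulated data. The members and lists were chosen with earlier results of these data known. Members called are named with values, up to 10 in each direction, and others were named after their values were seen. Alternatives were the filter on low signals, the choice of cluster, centring or quantile normalization, limma's trend and robust options, blocks, and leaving out arrays or sets.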

Additional observations from a re-analysis of the deposited data

Results flagged for a closer look

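Members whose effect differed between LNCaP and VCaP by the test of the difference itself (limma, adjusted p under 0.05) are listed here with VCaP minus LNCaP values on the log2 scale. For siCTBP1-AS these were SESN2 at 2.05, PSAT1 at 1.79 and STC2 at 1.93. For R1881 they were ATF5 at 1.55, DDIT4 at 1.05 and SLC7A5 at 0.83. The lines differ in array set and serum, and part of the LNCaP arrays in dose and siRNA label, and the part of these in the differences was not tested.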

How the results depend on the processing

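Of 790 values under alternatives, of members called in some setting, 678 stayed on their side of the threshold, 62 were no longer called, 50 became called and 0 were called with a changed sign. Filters, cluster choice, centring, quantile normalization and limma's options kept each count of called members within 1.5 times, except that leaving out the lowest 50% of genes gave 1 member for the line difference of the siCTBP1-AS effect (3 of all genes, main 19). With the replicate block the R1881 response in LNCaP siControl arrays called 7 members in place of 0, and 734 of all genes in place of 35. Without the block 0 members were called for R1881 over siRNAs in LNCaP (main 7) and 0 for siCTBP1-AS in LNCaP (main 4). The calls over all genes then were 87 (main 2143) and 1 (main 128). With only sets 1 and 2 siCTBP1-AS in LNCaP gave 2 members beside 86 of all genes, and with only sets 1, 2 and VCaP its effect over both lines gave 0. With only set 3 and VCaP, siPSF over both lines gave 1 (54 of all genes, main 200) and its line difference 4 (455 of all genes, main 22). Leaving out a set or array gave 0 to 7 members for siCTBP1-AS in LNCaP, 0 to 4 over both lines, 1 to 8 for its line difference, 2 to 8 for R1881 over siRNAs in LNCaP, 7 to 12 in VCaP and 2 to 11 for its line difference, while calls over all genes moved as well. The 7 for siCTBP1-AS in LNCaP came with 12.2% of all genes called, and the 8 for its line difference with 1335 genes. For R1881 the share of all genes ran from 4.11% to 15.3% in LNCaP and from 18.8% to 22.1% in VCaP. For the line difference of the R1881 response it ran from 7.35% to 10.7%. Leaving out the siControl vehicle array of set 1, and the set-wise alternatives of the siCTBP1-AS and siPSF line differences, were chosen after seeing the data. The cause of these changes was not tested, beyond fewer arrays in such fits. With 1 to 3 arrays a group, small changes cannot be seen.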
